A study of Mus musculus with 17 samples.

Results

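This account covers 10 genes for RNA-binding proteins other than Pcbp2 in mouse β cells, out of 55357 genes in the files. They were chosen by symbol: Elavl1, Elavl4, Ptbp1, Ptbp3, Nova1, Rbfox2, Rbm3, Cirbp, Rbms3 and Rbmx2. The estimated counts of their 99 transcripts were summed per gene in all 17 samples, and all 10 passed the filter on low counts, which kept 22784 genes. No measured value entered the rule, but Rbms3, Rbmx2 and Rbm3 stand in the study's own tables of these same samples. The size and direction of their changes here are therefore not independent evidence. The study names these genes among RNA-binding proteins altered in its data, which it fitted with a batch factor. The main fit here had no batch factor and, of these genes, called Rbmx2 alone.

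RNA-binding proteins set how a transcript is spliced, how long it lasts and how often it is translated. β cells share many of them with neurons. The ELAV proteins HuR (Elavl1) and HuD (Elavl4) bind AU-rich sequence in mRNAs, and the polypyrimidine tract binding proteins (Ptbp1, Ptbp3) regulate exon choice and mRNA stability, with insulin mRNA among the targets of HuD and PTBP1. NOVA1 and RBFOX2 are splicing regulators best known from neurons, RBM3 and CIRBP are small glycine-rich proteins induced by mild cold, RBMS3 binds single-stranded A- and U-rich nucleic acid, and RBMX2 is a spliceosome component. PCBP2, the gene deleted in this study, binds C-rich RNA.

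The samples were tdTomato-positive β cells sorted from islets of male mice after 3 days of culture of the islets in 2.8 mM (low) or 16.7 mM (high) glucose. Before that, the islets had recovered for 3 days at a glucose concentration between these. The control mice, named WT in the labels, carried RIP-Cre (Cre driven by a rat insulin promoter) and a Cre-dependent tdTomato reporter at Rosa26, and gave 3 samples in low and 4 in high glucose. The Pcbp2 βKO mice (RIPCre+;Pcbp2 fl/fl;tdTomato) carried the same driver and reporter with floxed Pcbp2 alleles, and gave 5 samples at each concentration. The age of these mice was not given in the sources used here. The comparisons ask how glucose and loss of PCBP2 relate to the transcripts of other RNA-binding proteins, and whether the glucose response differs between genotypes.

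Libraries held 47385513 to 82419400 estimated counts, and levels of genes are stated as CPM, that is counts scaled to library size with TMM factors. Pcbp2 lay at 62.5 ± 11.4 CPM (SD, n = 3) and 40.4 ± 5.27 CPM (SD, n = 4) in control cells and at 17.4 ± 1.39 and 7.66 ± 1.68 CPM (SD, n = 5 each) in Pcbp2 βKO cells in low and high glucose, so the groups did not overlap in Pcbp2 at either concentration. On the first principal component (30.02% of the variance), 3 libraries of high glucose stood apart from their groups: control replicate 4 at 9.87 (the other control samples at 97.15 or above) and Pcbp2 βKO replicates 4 and 5 at 21.36 and 33.24 (the others at 90.94 or above). All 10 β cell markers were detected, with summed levels of 119043 to 123222, 272015 to 526064, 67334 to 97381 and 359038 to 475307 CPM in control low, control high, Pcbp2 βKO low and Pcbp2 βKO high glucose. In the same order, 5 alpha cell markers summed to 678 to 2601, 530 to 1557, 1549 to 9404 and 950 to 1788 CPM, 4 macrophage markers to 18.1 to 65.2, 2.21 to 15.1, 26.1 to 152 and 1.64 to 13.5 CPM, and 6 neural and Schwann cell markers (1 of them at 0 throughout each group but Pcbp2 βKO low glucose) to 260 to 288, 292 to 409, 191 to 338 and 261 to 362 CPM. In such bulk samples, fewer cells of a type and less RNA per cell cannot be told apart. The labels number replicates without saying that they came from separate animals or cultures, so p values measure only the spread between these samples.

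Per length, the genes for the cold-inducible proteins and the PTB proteins stood highest by mean level and Nova1 lowest. In control cells in low glucose, levels were 111 ± 15.2 TPM (length-scaled transcript abundance, SD, n = 3) for Rbm3, 56.7 ± 2.14 TPM for Cirbp, 42.5 ± 5.32 TPM for Ptbp1, 31.1 ± 6.35 TPM for Ptbp3 and 22.5 ± 4.93 TPM for Elavl4. Rbmx2, Rbfox2, Rbms3 and Elavl1 followed at 9.28 ± 0.308, 8.92 ± 2.61, 5.29 ± 2.09 and 4.81 ± 2.82 TPM (SD, n = 3), and Nova1 was at 0.421 ± 0.217 TPM. Ranges of neighbours overlapped between Ptbp3 and Elavl4, between Rbmx2 and Rbfox2 and between Rbms3 and Elavl1, and the other 6 of 9 neighbouring pairs were separated. Rbm3, Cirbp, Ptbp1 and Ptbp3 held the first 4 places, in this order, and Nova1 the last in every group by mean TPM. In Pcbp2 βKO cells in high glucose, Rbms3 stood next to Ptbp3 at 14.8 ± 6.30 TPM (SD, n = 5) and Rbmx2 next to last at 2.81 ± 0.380 TPM. The short noncoding transcript Rbms3-213 (517 bases) took 81.3% of the Rbms3 counts there and 45.2% in control cells in low glucose. Levels of Rbms3 per length therefore hold a large part that is not from coding transcripts. Most of this order could not be separated in the other groups, since only 2, 1 and 3 of 9 neighbouring pairs did not overlap in control high, Pcbp2 βKO low and Pcbp2 βKO high glucose. In both Pcbp2 βKO groups the ranges of Rbm3 and Cirbp, of Cirbp and Ptbp1 and of Ptbp1 and Ptbp3 overlapped, and in high glucose so did those of Ptbp3 and Rbms3 and of Rbfox2 and Rbmx2. Nova1 was separated from the gene before it in every group. TPM were compared between genes within a group only: they are scaled to the library total, of which Ins2 alone took 8.90 to 9.03% of counts in control cells in low glucose and 18.2 to 25.7% in high glucose.

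**Figure D1:**
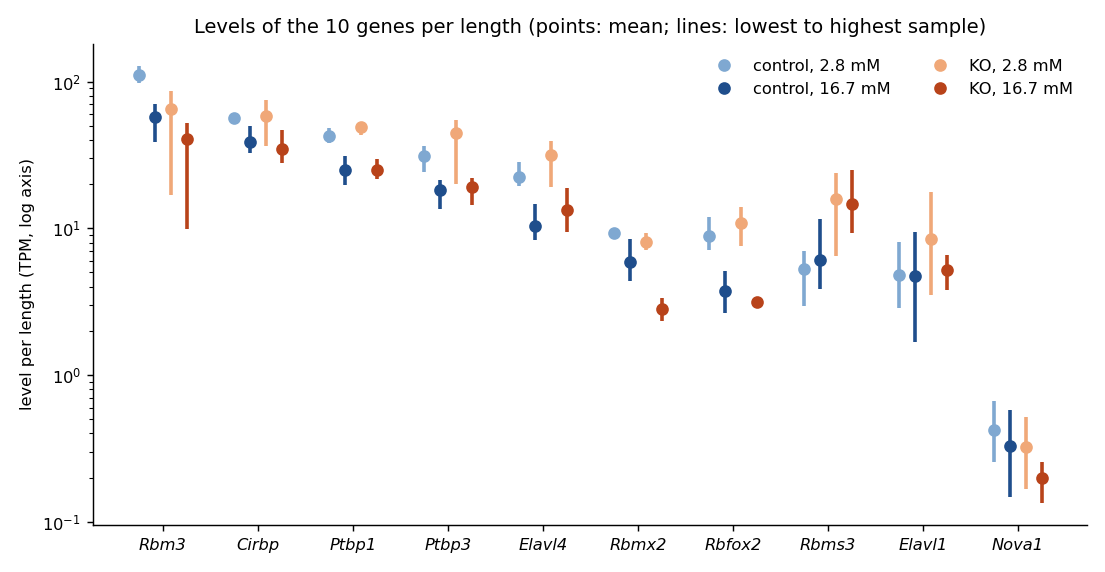
Level per length (TPM, log axis) of the 10 genes in the 4 groups, in the order of control cells in low glucose. Points are group means and lines run from the lowest to the highest sample (n = 3, 4, 5 and 5); Rbm3 stood at 111 TPM and Nova1 at 0.421 TPM in control cells in low glucose, and Nova1 was last in every group.

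Of the 10 genes 1, Rbmx2, passed the test, in 1 comparison, in the fit without the replicate number. Calls required a fold change over 1.5 and an adjusted p under 0.05 in the quasi-likelihood F test of edgeR (Benjamini-Hochberg adjustment over all genes tested). None of the 10 was called for high against low glucose in control cells, where 13.8% of all genes tested were called, and all 10 overlapped between the groups, where 24.1% of all genes did not. For Pcbp2 βKO against control cells, 1 of 10 (Rbmx2, lower) was called in high glucose, against 1.71% of all genes in either direction and 1.42% lower, and none in low glucose, against 2.04%. For high against low glucose in Pcbp2 βKO cells, none of the 10 was called, against 23.8% of all genes, and none had a called interaction between genotype and glucose, against 0.00439%. At an unadjusted p under 0.05, edgeR counted 0, 3, 2, 3 and 1 of the 10 genes in these 5 comparisons, and DESeq2 called 0, 2, 1, 0 and 0. With the replicate number as a block, edgeR called 2 for the knockout in high glucose (Rbmx2, Rbms3) and 3 in low glucose (Rbm3, Rbms3, Ptbp3). The median log2 fold change of the 10 genes was 0.07 between glucose concentrations in control cells, 0.02 and 0.09 for the knockout in high and low glucose and 0.13 for glucose in Pcbp2 βKO cells, beside medians of 0.04, 0.01, 0.03 and 0.01 over all genes. Without the sign, the medians of the 10 genes were 0.24, 0.33, 0.38 and 0.33, beside 0.47, 0.26, 0.29 and 0.48 over all genes, so that they were below those of all genes for glucose and above them for the knockout. These comparisons share samples with each other.

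**Figure D2:**
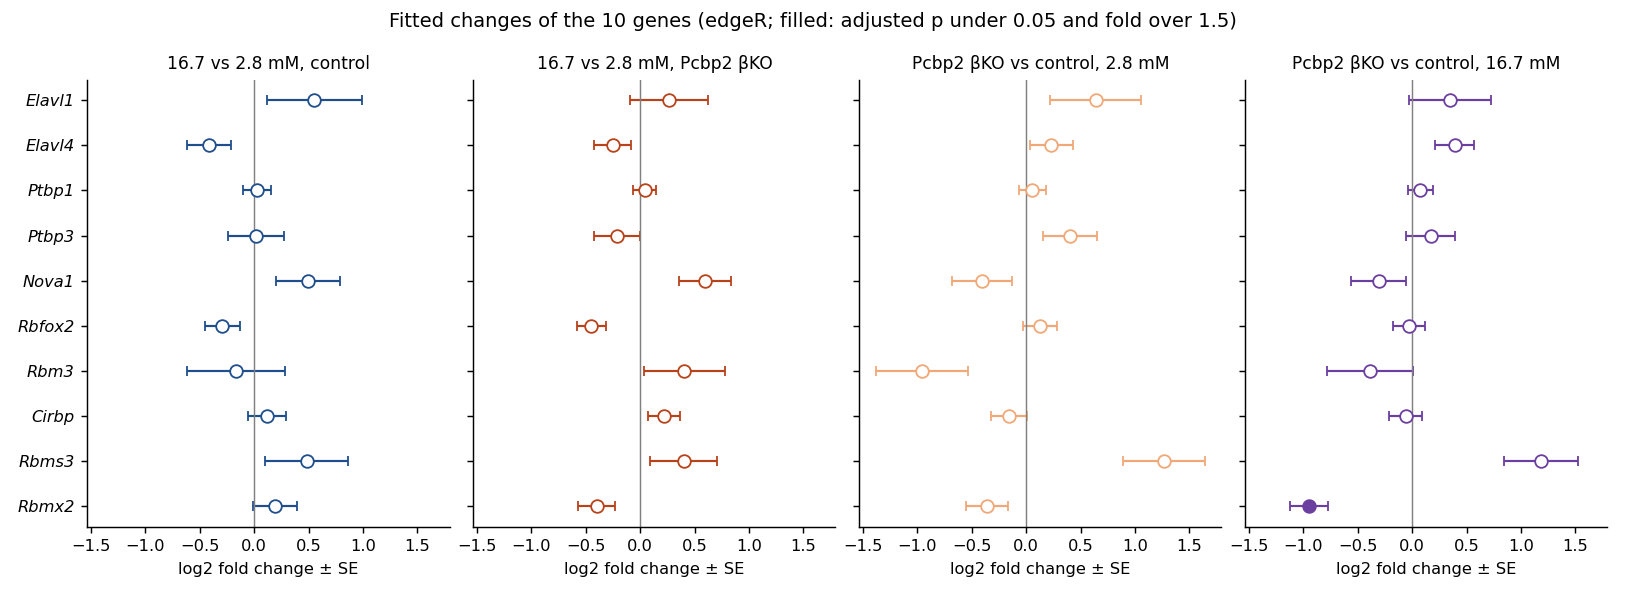
Log2 fold change with its standard error (x axis) of the 10 genes (y axis) in 4 comparisons of one edgeR fit; filled points passed an adjusted p of 0.05 and a fold of 1.5. The single filled point is Rbmx2 in Pcbp2 βKO against control cells in high glucose, at -0.95, and Rbms3 lies at 1.18 and 1.27 without passing.

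Rbmx2, which encodes a subunit of the spliceosome, was lower without PCBP2 in high glucose. The gene (ENSMUSG00000031107) lies on the forward strand of the X chromosome (GRCm39, chrX:47783877-47799600) and overlaps no other annotated gene there. In high glucose it was at 14.99, 13.6, 23.6 and 11.9 CPM in control samples and at 9.03, 6.77, 8.75, 8.77 and 8.21 CPM in Pcbp2 βKO samples. Every Pcbp2 βKO sample lay below every control sample, as did 4.49% of all genes in either direction, and control replicate 3 was the highest of the 9. The means were 16.02 ± 5.22 (SD, n = 4) and 8.31 ± 0.908 CPM (SD, n = 5), with a log2 fold change of -0.95 (SE 0.177, adjusted p = 0.00643 by edgeR with Benjamini-Hochberg adjustment). Without control replicate 3 the log2 fold change was -0.70 and the adjusted p 0.0303 by edgeR, and without the 3 libraries that stood apart it was -1.09 with an adjusted p of 0.00886. The call held with each of the 17 libraries left out in turn. In the same comparison 6 proliferation markers summed to 8.18 to 62.2 CPM in control and 2.18 to 271 CPM in Pcbp2 βKO cells, where 5 of 6 had an unadjusted p under 0.05 (none called by edgeR; log2 fold change 2.19 at the median). The 4 ductal markers (Krt19, Sox9, Spp1 and Cftr) summed to 51.5 to 802 and 12.8 to 143 CPM, and 1 of them was called lower (-1.41 at the median). The study itself lists Cftr among the genes lowered in β cells without PCBP2. The part of these markers in the difference in Rbmx2 was not tested. Its main transcript, Rbmx2-201, carried 98.6% of its counts and by itself gave a log2 fold change of -0.94 (adjusted p = 0.0396 by edgeR over 65504 transcripts, of which 0.328% were called lower).

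In low glucose the difference in Rbmx2 was smaller and did not pass. Control samples were at 12.9, 15.5 and 13.6 CPM and Pcbp2 βKO samples at 11.5, 9.69, 9.71, 11.6 and 12.2 CPM. The groups did not overlap, as for 10.9% of all genes, with a log2 fold change of -0.36 (SE 0.191, adjusted p = 0.464 by edgeR). Between glucose concentrations, Rbmx2 gave 0.19 on the log2 scale in control cells and -0.40 in Pcbp2 βKO cells (adjusted p = 0.583 and 0.0828 by edgeR), where again the groups did not overlap, as for 21.6% of all genes. The difference between these 2 responses was -0.59 (SE 0.263, adjusted p = 1 by edgeR), so an effect of genotype that depends on glucose was not shown for Rbmx2.

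Over all 17 samples, the genes whose profile was nearest to that of Rbmx2 were Laptm4b, Ifrd1, Gpx1 and Adpgk, with root mean square differences of centred log2 CPM of 0.180, 0.216, 0.218 and 0.222. The median over the 10013 genes compared was 0.540.

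Rbms3, which encodes a binder of single-stranded nucleic acid, had the largest fold changes of the 10 genes in the knockout. It did not pass the threshold in the fit without the replicate number. Control samples were at 3.22, 1.99 and 4.09 CPM in low and at 4.87, 3.28, 2.34 and 6.85 CPM in high glucose. Pcbp2 βKO samples were at 6.17, 4.35, 8.07, 9.94 and 8.77 CPM in low and at 10.04, 6.08, 7.37, 10.54 and 15.1 CPM in high glucose. In low glucose every Pcbp2 βKO sample lay above every control sample, where 10.9% of all genes did not overlap in either direction. In high glucose control replicate 4, one of the libraries that stood apart, reached above the lowest Pcbp2 βKO sample. The log2 fold changes were 1.27 in low glucose (SE 0.377, adjusted p = 0.102) and 1.18 in high glucose (SE 0.339, adjusted p = 0.0988), both by edgeR. Without control replicate 4 of high glucose the adjusted p of the latter was 0.0268 at a log2 fold change of 1.48, and without all 3 libraries that stood apart the low-glucose value was 1.28 with an adjusted p of 0.0465. DESeq2 called both (adjusted p = 0.0188 in low and 0.0221 in high glucose). So did edgeR with the replicate number as a block, at 1.00 in low and 1.04 in high glucose (adjusted p = 0.0130 and 0.0443). The labels do not say what the numbers stand for.

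Averaged over all samples, most of the Rbms3 counts came from 1 short transcript without a coding sequence. In control cells in low glucose it took 45.2% on average and the coding transcripts 54.4%. Rbms3-213, a processed transcript of 517 bases in 4 exons, took 63.4% of the gene's counts on average, and 1 of its 4 exons overlaps another Rbms3 transcript in the current annotation. It lies at chr9:117537260-117701652 on the reverse strand of GRCm39, 455.7 kb upstream of the start of Rbms3-206 (chr9:116401814-117081531, 15 exons), the most abundant coding transcript, and 1 of 18 protein-coding Rbms3 transcripts of GENCODE vM39 reaches its span. The gene as a whole covers 1299.9 kb. The first exon junctions of both transcripts are shown because they tell the counted RNAs apart: the capitals mark the 15 bases of the first exon and the lower case the 15 bases of the second, 5′ to 3′ on the transcript, from the GENCODE vM39 transcripts of GRCm39.
Rbms3-213: AGGGGGGAGAGCAAGtattccagtgacaga
Rbms3-206: TACCTCCAAACCAAGcagtcctatgcacca
The bases of Rbms3-213 lie at chr9:117701534-117701548 and chr9:117537893-117537907, and those of Rbms3-206 at chr9:117080795-117080809 and chr9:116939172-116939186.

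Divided this way, the short transcript and the rest of the gene took different values across the groups. Rbms3-213 was at 1.39 ± 0.423 (SD, n = 3) and 3.00 ± 1.15 CPM (SD, n = 4) in control and at 3.87 ± 1.62 and 8.07 ± 3.26 CPM (SD, n = 5 each) in Pcbp2 βKO cells in low and high glucose. The other Rbms3 transcripts together were at 1.71 ± 0.665 and 1.33 ± 0.828 CPM in control and at 3.59 ± 0.982 and 1.77 ± 0.478 CPM in Pcbp2 βKO cells. For the sum of the others, the knockout gave a log2 fold change of 0.41 in high and 1.06 in low glucose, and neither passed. From low to high glucose it fell in Pcbp2 βKO cells by 1.02 on the log2 scale (adjusted p = 0.0403 by edgeR), where the whole gene gave 0.40. Rbms3-213 by itself gave 1.43 and 1.46 on the log2 scale for the knockout in high and low glucose (adjusted p = 0.202 and 0.268 by edgeR over all transcripts). These splits of Rbms3 were chosen after the data had been seen, and they rest on 70 to 1040 estimated counts of Rbms3-213 per library.

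Rbm3 and Cirbp, the genes for the cold-inducible proteins, did not pass in any comparison in the fit without the replicate number. Rbm3 had the widest spread of the 10 genes. Rbm3 (chrX:8004213-8012119, reverse strand) was at 110, 149 and 111 CPM in control samples in low glucose and at 94.6, 127, 132 and 86.3 CPM in high glucose. The Pcbp2 βKO samples lay at 77.1, 83.9, 66.2, 69.6 and 20.5 CPM in low and at 121, 104, 96.1, 80.0 and 19.1 CPM in high glucose. The lowest sample in both Pcbp2 βKO groups was replicate 5, at less than any other sample of the series. In low glucose all 5 Pcbp2 βKO samples lay below the 3 controls, where 10.9% of all genes did not overlap in either direction. The log2 fold change was -0.96 (SE 0.421, adjusted p = 0.333 by edgeR). Without both Pcbp2 βKO libraries numbered 5, a choice made after seeing these values, the change was -0.73 and passed (adjusted p = 0.0380 by edgeR), as it did with the replicate block (-0.71, adjusted p = 0.00463 by edgeR). In low glucose the 2 markers of pancreatic polypeptide (PP) cells summed to 1111 to 1208 CPM in control and 1431 to 7425 CPM in Pcbp2 βKO cells, and the 3 delta cell markers to 251 to 389.8 and 480.4 to 1316 CPM. Neither list overlapped between genotypes, both were highest in replicate 5, and none of these markers was called. The summed β cell markers were lower in Pcbp2 βKO cells without overlap (2 of 10 called lower), while alpha cell and macrophage markers overlapped (the ranges above). The part of these markers in the difference in Rbm3 was not tested. In high glucose the log2 fold change was -0.38 (SE 0.393, adjusted p = 0.792 by edgeR), with overlap between the groups.

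The Rbm3 libraries numbered 5 also differed in which transcripts they held. Retained-intron transcripts made up 17.2% and 16.5% of the Rbm3 counts in Pcbp2 βKO replicate 5 in low and high glucose, and transcripts annotated for nonsense-mediated decay 15.3% and 8.61%. In the other 15 libraries, the decay class took 0.449 to 4.31%, and the retained-intron class 3.14 to 21.0%. Rbm3 shares exon sequence with the antisense gene Rbm3os, and whether counting used strand is not given in the sources used here.

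Cirbp (chr10:79997069-80008626, forward strand), the other cold-inducible member, was nearly level, at 63.9 ± 4.07 (SD, n = 3) and 69.6 ± 9.41 CPM (SD, n = 4) in control and 57.4 ± 11.4 and 66.8 ± 10.8 CPM (SD, n = 5 each) in Pcbp2 βKO cells. Replicate 5 was the lowest Pcbp2 βKO sample for Cirbp too, at 40.8 CPM in low and 54.1 CPM in high glucose. Its log2 fold changes ran from -0.15 (knockout, low glucose) to 0.22 (glucose in Pcbp2 βKO cells), with adjusted p = 0.777 and 0.286 by edgeR.

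The ELAV genes did not pass in any comparison. Elavl4 (HuD, chr4:110060810-110209142, reverse strand), which restrains insulin translation, was at 24.3, 38.3 and 24.0 CPM in control samples in low and at 19.0, 24.8, 18.0 and 24.9 CPM in high glucose. Pcbp2 βKO samples were at 34.4, 42.5, 31.8, 34.8 and 26.0 CPM in low and at 26.0, 27.5, 24.3, 26.4 and 38.1 CPM in high glucose. Values overlapped in every comparison. High glucose gave a log2 fold change of -0.41 in control cells (SE 0.204, adjusted p = 0.191 by edgeR) and -0.25 in Pcbp2 βKO cells (adjusted p = 0.294), and the knockout gave 0.39 in high glucose (SE 0.182, adjusted p = 0.397). Elavl4 had the smallest p of the 10 genes for glucose in control cells, and its nearest profiles over the 17 samples were those of Tmem131l, Nfia, Cnksr3 and Dpysl2, with root mean square differences of centred log2 CPM of 0.152 to 0.168 against a median of 0.454.

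Elavl1 (HuR, chr8:4332576-4375489, reverse strand), the widely expressed member of the family, varied most within groups after Rbm3. It was at 11.5, 12.7 and 23.2 CPM in control samples in low, at 12.2, 12.7, 29.6 and 38.2 CPM in control samples in high, at 15.7, 13.6, 31.1, 46.1 and 16.5 CPM in Pcbp2 βKO samples in low and at 31.7, 37.1, 22.9, 29.4 and 26.4 CPM in high glucose. Single samples overlapped in every comparison, and the log2 fold changes of 0.26 to 0.64 were not distinguishable from this spread (adjusted p from 0.437 to 0.807 by edgeR). Its 2 main coding transcripts, Elavl1-204 and Elavl1-201, took 51.0% and 45.6% of the counts. The neuronal relatives were low: Elavl2 lay at 1.09 ± 0.272 and 0.669 ± 0.432 CPM in control and 0.349 ± 0.143 and 0.264 ± 0.0505 CPM in Pcbp2 βKO cells, with log2 fold changes of -1.65 and -1.34 for the knockout (adjusted p = 0.0619 and 0.157 by edgeR), and Elavl3 was under the filter. None of the 3 ELAV genes tested was called in any comparison.

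The PTB genes were abundant, and Ptbp1 was the steadiest of the 10. Ptbp1 (chr10:79690261-79700605, forward strand), whose product binds insulin mRNA, was at 112 ± 10.8 (SD, n = 3) and 114 ± 11.2 CPM (SD, n = 4) in control and at 117 ± 11.5 and 120 ± 13.7 CPM (SD, n = 5 each) in Pcbp2 βKO cells. All 17 samples lay between 104 and 136 CPM. Its 4 log2 fold changes were 0.03 to 0.07, with standard errors from 0.108 to 0.1302. The residual SD of its log2 CPM within groups was 0.146, and 3.16% of all genes tested had a smaller one. For Rbm3, by comparison, the residual SD was 0.780, with 75.4% of genes below it.

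Ptbp3 (chr4:59471868-59549371, reverse strand), a paralog with broad expression in blood cells and other tissues, was at 164, 122 and 146 CPM in control samples in low glucose and at 143, 174, 114 and 152 CPM in high glucose. Pcbp2 βKO samples were at 274, 200, 197, 192 and 91.3 CPM in low and at 197, 181, 165, 158 and 121 CPM in high glucose. In low glucose 4 of 5 Pcbp2 βKO samples lay above the controls and replicate 5 below them, with a log2 fold change of 0.40 (SE 0.248, adjusted p = 0.543 by edgeR), and 0.61 with the replicate block, where it was called (adjusted p = 0.0111). Ptbp2, the neuronal member of the family, lay at 5.55 to 7.48 CPM by group, and in the fit without the block none of the 3 PTB genes was called.

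Of the neuronal-type splicing regulators, Nova1 was the lowest of the 10 genes, and Rbfox2 was lower in high glucose in Pcbp2 βKO cells by a fold under the threshold. Nova1 (chr12:46741300-46866286, reverse strand) was at 1.91, 1.44 and 1.93 CPM in control samples in low and 2.33, 1.75, 3.81 and 2.02 CPM in high glucose. Pcbp2 βKO samples stood at 1.25, 1.31, 1.28, 1.25 and 1.54 CPM in low and 2.79, 1.78, 2.05, 1.42 and 1.99 CPM in high glucose. The high-glucose means were higher in both genotypes, with log2 fold changes of 0.49 (adjusted p = 0.280) and 0.59 (adjusted p = 0.0703) by edgeR, and single samples overlapped. Without control replicate 3 or Pcbp2 βKO replicate 4 of high glucose, the latter passed (adjusted p = 0.0428 and 0.0410 by edgeR).

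Rbfox2 (chr15:76963189-77191303, reverse strand) was at 15.9, 19.0 and 23.6 CPM in control samples in low and at 16.2, 14.7, 17.5 and 15.4 CPM in high glucose. Values in Pcbp2 βKO samples were 18.8, 23.4, 22.5, 24.3 and 17.7 CPM in low and 17.3, 17.1, 16.2, 14.8 and 12.9 CPM in high glucose. They did not overlap, as for 21.6% of all genes. The log2 fold change in Pcbp2 βKO cells was -0.45 (SE 0.135, adjusted p = 0.0173 by edgeR), under the threshold for the fold, and in control cells -0.29 (SE 0.162, adjusted p = 0.2495). Several marker lists also moved between low and high glucose in Pcbp2 βKO cells. Of the proliferation markers 6 of 6 were called higher (summed 4.07 to 12.8 CPM in low and 2.18 to 271 CPM in high glucose), as were 8 of 10 β cell markers. Called lower were 4 of 4 macrophage markers, 2 of 2 PP markers (1431 to 7425 and 470.3 to 1456 CPM), 2 of 3 delta cell markers (480.4 to 1316 and 198 to 565 CPM) and 11 of 14 heat shock genes. Their part in the difference in Rbfox2, or in the differences in transcript shares below, was not tested.

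**Figure D3:**
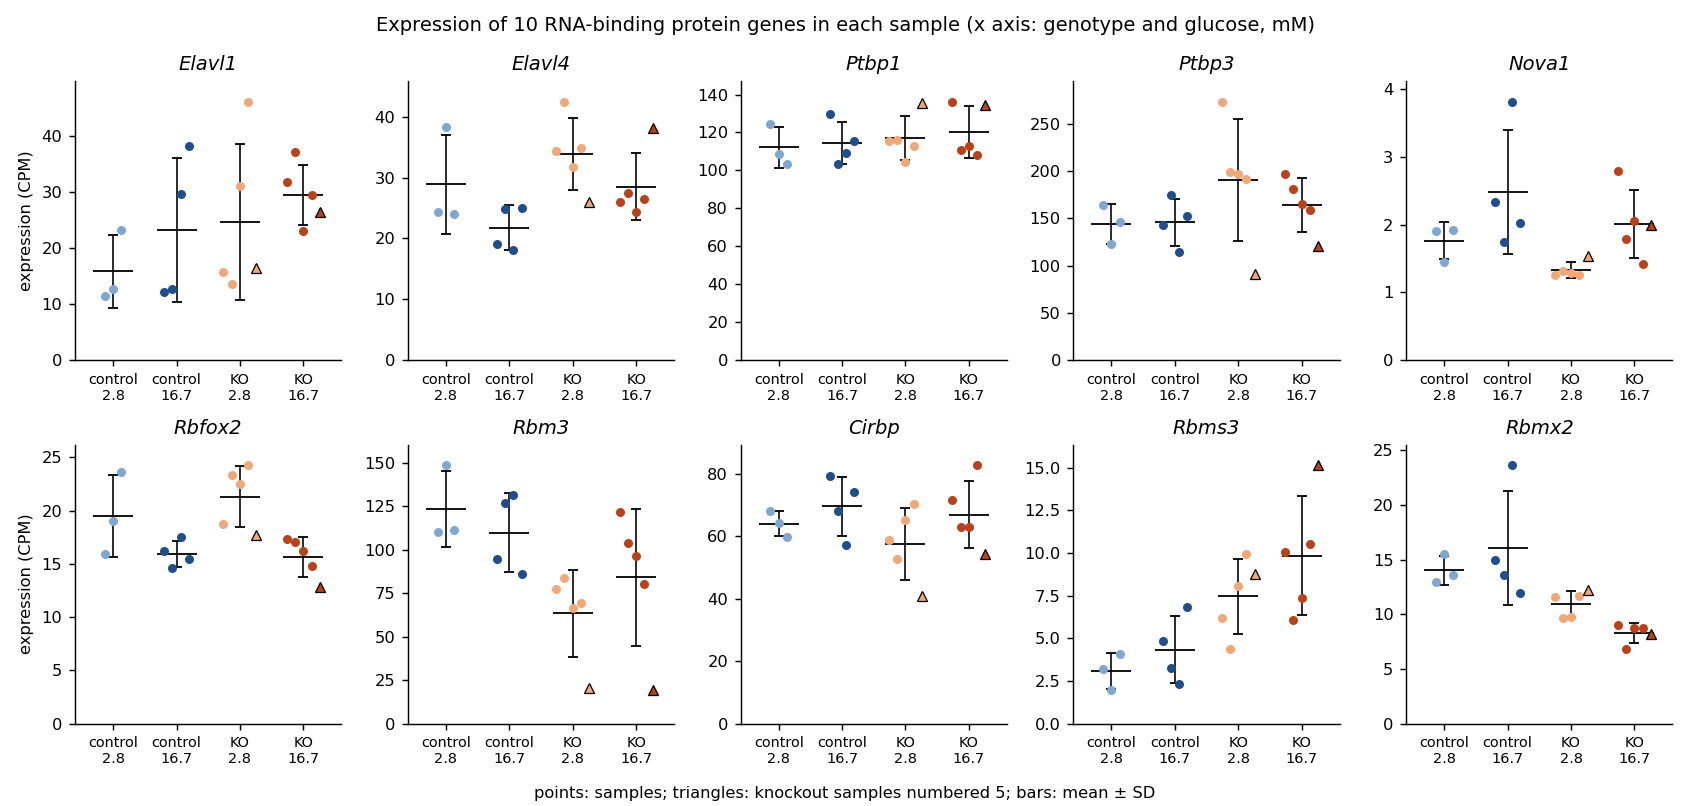
Expression (CPM, linear axes from 0) of the 10 genes in each sample by genotype and glucose; bars are means ± SD (n = 3, 4, 5 and 5) and triangles mark Pcbp2 βKO samples numbered 5. Rbmx2 in Pcbp2 βKO samples in high glucose (6.77 to 9.03 CPM) lies below every control sample, and Rbm3 in the samples numbered 5 (20.5 and 19.1 CPM) lies below all others.

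The transcripts that made up these totals differed with glucose, with 10 calls in Pcbp2 βKO cells and 1 in control cells. The share of each transcript in its gene was tested for 66 transcripts of 9 of the genes (limma on log2 odds with Benjamini-Hochberg adjustment over 46489 transcripts), and called at an adjusted p under 0.05 and an odds ratio over 1.5. Of the 66, 10 were called in Pcbp2 βKO cells between high and low glucose, 6 higher and 4 lower, in 5 genes, against 7.4% of all transcripts tested (3.93% higher and 3.47% lower). Among control samples 1 of 66 was called, higher (1.32% of all, 0.693% higher), and none between genotypes in high glucose (0.118% of all) or low glucose (0.0559%). At an unadjusted p under 0.05, limma counted 11 of the 66 for glucose in control cells and 14 in Pcbp2 βKO cells, so these counts were closer than the calls. Between genotypes in high and low glucose limma counted 3 and 4 of the 66, and the edgeR usage test called 0 in both. No share of these genes had a called interaction between genotype and glucose (1 of 46489 transcripts had one, and 4 of the 66 an unadjusted p under 0.05), so a difference between the genotypes in these glucose responses was not shown. Shares of low and high glucose did not overlap for 14.3% of all transcripts in control and 9.23% in Pcbp2 βKO cells.

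Ptbp1-216, a transcript with an exon that Ptbp1-201 and Ptbp1-202 lack, gained share in high glucose. Ptbp1-216 made up 50.1, 53.9 and 56.2% of Ptbp1 counts in control samples in low and 55.8, 60.7, 66.3 and 61.1% in high glucose. In Pcbp2 βKO samples the share was 55.2, 48.9, 45.8, 50.8 and 53.8% in low and 65.2, 68.9, 59.3, 61.8 and 66.8% in high glucose, with no overlap. The difference was 0.81 log2 odds in Pcbp2 βKO cells (SE 0.167, adjusted p = 0.00952 by limma) and 0.45 in control cells (SE 0.202, adjusted p = 0.295). Ptbp1-216 has a 78-base exon (chr10:79695951-79696028) that Ptbp1-201 and Ptbp1-202 lack in GENCODE vM39, where Ptbp1-202 has another version or length than the transcript counted. The lower-share partner Ptbp1-202 gave -0.55 log2 odds in Pcbp2 βKO cells (adjusted p = 0.0283 by limma), under the threshold for the odds. Ptbp1-201 also lacks a 34-base exon (chr10:79697848-79697881), the exon whose skipping is known to send Ptbp1 mRNA to nonsense-mediated decay, and it is annotated for decay. It made up 7.88 ± 3.62 and 4.72 ± 4.09% in control and 6.69 ± 3.20 and 3.27 ± 1.81% in Pcbp2 βKO cells in low and high glucose, and was not called (adjusted p = 0.235 in Pcbp2 βKO cells by limma).
The junctions that tell Ptbp1-216 from Ptbp1-201 are shown for this exon: lower case marks the shared 15 bases (chr10:79695775-79695789, forward strand) and capitals the 15 bases that follow in each transcript.
Ptbp1-216: tggcagcagcctttgGTGCGCCCGGCATAA
Ptbp1-201: tggcagcagcctttgGCCTCTCTGTCCCTA
The bases in capitals lie at chr10:79695951-79695965 for Ptbp1-216 and at chr10:79696658-79696672 for Ptbp1-201. Exons of Plppr3 on the opposite strand overlap those of Ptbp1.

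In Ptbp3, the transcript Ptbp3-212 gained share in high glucose. It made up 12.6, 6.34 and 8.25% of Ptbp3 counts in control samples in low and 19.1, 13.03, 21.1 and 13.1% in high glucose. The Pcbp2 βKO samples had 5.01, 5.68, 3.01, 6.69 and 7.91% in low and 23.9, 21.8, 24.8, 16.4 and 14.95% in high glucose. The groups did not overlap in either genotype, and the differences were 2.14 log2 odds in Pcbp2 βKO cells (SE 0.310, adjusted p = 0.00116 by limma) and 1.02 in control cells (SE 0.375, adjusted p = 0.195). The main transcript, Ptbp3-201, fell in Pcbp2 βKO cells from 79.5 ± 3.67 to 65.2 ± 5.89% (SD, n = 5 each), a difference of -1.05 log2 odds (adjusted p = 0.0445 by limma), a call lost without most single libraries. In the current annotation Ptbp3-212 differs by a 34-base exon near the 5′ end (chr4:59546149-59546182, reverse strand), in a newer version of the transcript than the one counted. Its junction is shown with the last 15 bases of that exon in capitals and the first 15 of the next in lower case (chr4:59546149-59546163 and chr4:59524462-59524476).
Ptbp3-212: GCAGTCGGTTTAAAGcggggatctgatgag

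Elavl4 moved between transcripts with different first exons. Elavl4-205 made up 3.17, 3.904 and 8.29% of Elavl4 counts in control samples in low and 10.7, 12.1, 17.8 and 4.24% in high glucose. Pcbp2 βKO samples held 2.23, 1.21, 1.22, 3.92 and 2.14% in low and 20.01, 27.2, 26.6, 14.0 and 11.4% in high glucose. The groups were apart in Pcbp2 βKO cells, by 3.55 log2 odds (SE 0.478, adjusted p = 0.000760 by limma), and overlapped in control cells, where the difference was 1.18 (SE 0.577, adjusted p = 0.342). The interaction for Elavl4-205 was 2.37 log2 odds (SE 0.750, adjusted p = 1 by limma).
Elavl4-201, which had the highest mean count of the Elavl4 transcripts, made up 15.8, 34.7 and 31.1% in control samples in low and 0, 12.8, 14.1 and 26.0% in high glucose. Its share in Pcbp2 βKO samples was 41.1, 36.8, 33.5, 37.1 and 5.25% in low glucose and at most 0.875% in 4 of 5 samples in high glucose, with 9.05% in replicate 5. Its share in Pcbp2 βKO cells fell by 6.87 log2 odds (SE 1.78, adjusted p = 0.0297 by limma), and the call was lost without any one of 7 libraries of these groups (adjusted p up to 0.0769). Elavl4-209, a short transcript of 488 bases, rose from 1.41 ± 0.531 to 4.77 ± 1.61% (SD, n = 5 each) in Pcbp2 βKO cells, by 1.81 log2 odds (adjusted p = 0.0131 by limma), and went from 1.53 ± 0.789 to 5.60 ± 1.91% in control cells (adjusted p = 0.0558). The starts of Elavl4-205 and Elavl4-209 lie 3383 and 4004 bases upstream of that of Elavl4-201 in GENCODE vM39, where 201 and 205 are newer versions than those counted. The first junctions are shown because only the first exon separates the 3 at this point: capitals mark its last 15 bases and lower case the shared start of the next exon (chr4:110108704-110108718, reverse strand).
Elavl4-201: AATGGCTTGAAGATGataattagcaccatg
Elavl4-205: AACTGCTCATTTATGataattagcaccatg
Elavl4-209: TTATTAAATAATGAGataattagcaccatg
The capitals lie at chr4:110143667-110143681, chr4:110147358-110147372 and chr4:110147831-110147845.

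The noncoding Rbms3-213, whose junction is printed above, made up 48.9, 45.5 and 41.2% of Rbms3 counts in control samples in low and 67.6, 70.7, 81.3 and 65.5% in high glucose. In Pcbp2 βKO samples the share was 55.6, 31.5, 64.0, 54.4 and 45.5% in low and 79.0, 81.0, 80.2, 77.8 and 88.3% in high glucose. High glucose went with the higher share in both genotypes without overlap, by 2.14 log2 odds in Pcbp2 βKO cells (SE 0.337, adjusted p = 0.00195 by limma) and 1.61 in control cells (SE 0.407, adjusted p = 0.0653). Rbms3-206 fell in Pcbp2 βKO cells from 21.2 ± 5.12 to 6.89 ± 2.43% (SD, n = 5 each; adjusted p = 0.0141 by limma), on a mean of 69.2 estimated counts per library.

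Cirbp held nearly all its counts in Cirbp-202, at 92.3% on average, and the calls concerned minor transcripts. Cirbp-207, a coding transcript of 423 bases that starts 1793 bases before Cirbp-202, made up 0.349, 0.657 and 0.206% in control samples in low and 5.35, 2.94, 2.33 and 1.31% in high glucose. The Pcbp2 βKO samples had 0.189, 0.231, 0.200, 0.174 and 0.395% in low and 2.20, 2.34, 4.30, 2.08 and 1.202% in high glucose. Its share rose without overlap in both genotypes, by 2.87 log2 odds in control cells (SE 0.538, adjusted p = 0.0215 by limma) and 3.27 in Pcbp2 βKO cells (SE 0.445, adjusted p = 0.000832). Its level by itself rose too, by 3.02 on the log2 scale in control cells (adjusted p = 0.00956 by edgeR, against 2.22% of all transcripts called higher) and 3.66 in Pcbp2 βKO cells (adjusted p = 0.000150, against 7.57%). The share call in control cells was lost with the replicate number as a block (3.21 log2 odds, adjusted p = 0.271 by limma), a block under which no transcript of any gene was called, and without control replicate 1 or 3 of low or 2 or 3 of high glucose (adjusted p from 0.0519 to 0.0762). The retained-intron transcript Cirbp-204 fell in Pcbp2 βKO cells from 6.31 ± 2.59 to 2.35 ± 0.525% (SD, n = 5 each; adjusted p = 0.0135 by limma), and lost the call without the libraries that stood apart (adjusted p = 0.0799) or without both libraries numbered 5 (adjusted p = 0.0571).

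**Figure D4:**
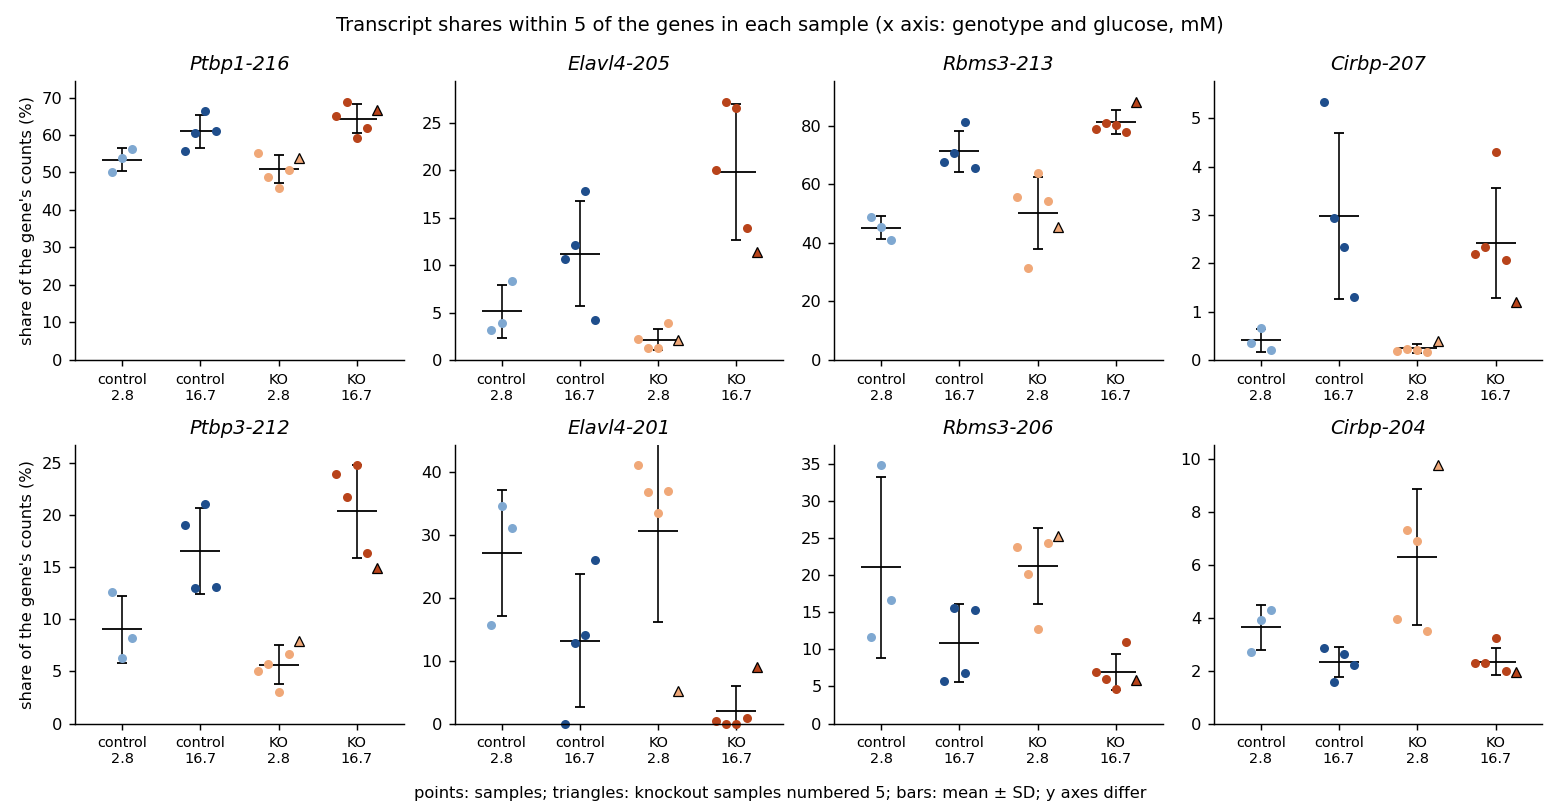
Share (%, axes from 0, scales differ) of 8 transcripts in the counts of their gene in each sample by genotype and glucose; bars are means ± SD (n = 3, 4, 5 and 5, cut at 0) and triangles mark Pcbp2 βKO samples numbered 5. Ptbp1-216, Ptbp3-212, Elavl4-205, Rbms3-213 and Cirbp-207 are higher in high glucose in Pcbp2 βKO cells, and Ptbp3-212, Rbms3-213 and Cirbp-207 do not overlap between glucose concentrations in control cells either.

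Kallisto divides reads that fit several transcripts, and the uncertainty of that division was not used here. With the transcript usage test of edgeR in place of limma, 4 of the 10 calls in Pcbp2 βKO cells held: Cirbp-207, Elavl4-201, Elavl4-205 and Ptbp3-212.

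Because PCBP2 binds C-rich RNA, the C content of the 3′-UTR was read for the most abundant coding transcript of 9 of the 10 genes in GENCODE vM39, in 5 cases the version that was counted. It ran from 14.2% in Elavl4 to 26.4% in Ptbp1, around a median of 21.8% over 14767 genes. Rbmx2, the member called in the knockout, was at 18.8%, with 24.3% of genes below it, and the values of the others were 22.8% (Cirbp), 20.6% (Elavl1), 19.4% (Rbms3), 17.4% (Nova1), 16.4% (Ptbp3) and 14.6% (Rbm3). These are descriptions of the sequence and were not tested against the changes.

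Beyond the 10 genes, 37 genes of the RBM, RBMS and RBMX families, 18 neuronal-type splicing regulators and 32 binders that act on mRNA stability or translation passed the filter; the lists include members. In Pcbp2 βKO against control cells, the families gave 1 lower call in high glucose, which was Rbmx2, and 2 in low glucose, Rbm20 (-1.71, adjusted p = 0.0183 by edgeR) and Rbms2 (-0.81, adjusted p = 0.0476). The other lists gave none in high or low glucose (at an unadjusted p under 0.05, 0 and 1 splicing regulators and 1 and 3 stability and translation binders). High glucose gave 3 higher and 2 lower calls among the 37 family genes in control cells (13.5%, beside 13.8% of all genes), led by Rbm20 (1.66), a splicing regulator known from heart muscle, Rbm4 (1.03) and Rbm47 (0.85), with Rbm39 (-0.66) and Rbm5 (-0.61) lower. The same comparison in Pcbp2 βKO cells gave 5 higher calls (led by Rbm20 at 2.94, Rbm4 at 1.12 and Rbms2 at 0.96) and 4 lower ones (led by Rbm38 at -1.94, Rbm15 at -1.01 and Rbm7 at -0.88), which is 24.3% beside 23.8% of all genes. Both shares of the family genes were near those of all genes. In control and Pcbp2 βKO cells, shares called were 5.56 and 11.1% for the splicing regulators and 9.38% in both genotypes for the stability and translation binders. Among the splicing regulators Srrm4, which drives inclusion of neuronal microexons, rose in both genotypes (1.75 and 1.49), and Mbnl3 rose in Pcbp2 βKO cells (1.29). Among the stability and translation binders, Zfp36 rose in control cells (1.36), Fxr1 fell in both genotypes (-0.77 and -0.96), and Zfp36l2 fell in Pcbp2 βKO cells (-0.75). None of these lists had a called interaction (at an unadjusted p under 0.05, 2 family genes and 0 genes of the other lists).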

How the data were processed

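RNA of 17 samples in 4 groups of 3 to 5 was sequenced by the authors and pseudoaligned with Kallisto to the mouse transcriptome (mm39 in the submitters' processing notes); versions of Kallisto and of the annotation are not given in the sources used here. The authors deposited, for each sample, estimated counts per transcript, without normalization between samples, and TPM, scaled by Kallisto to effective length and library total. Groups and replicate numbers came from the labels. The batch factor of the study was not fitted, since its levels are not given in the sources used here.

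Estimated counts were summed per gene and rounded, genes were kept by edgeR's default filter, and 5 contrasts of the 4 group means were tested over all 17 samples with edgeR 4.0.16 (R 4.3.3; TMM factors, quasi-likelihood F test). Shares used limma 3.58.1 on log2 odds with 0.5 estimated counts added, for transcripts with a mean of at least 10 counts. Depth was 47385513 to 82419400 estimated counts; counting intervals were not given, since replicate SD includes counting error. The tests were run on simulated data first. Of 2-fold changes edgeR recovered 44% for glucose in control and 60% in Pcbp2 βKO cells. For the knockout it recovered 64% in high and 47% in low glucose. Of shifted shares limma recovered 12.5, 24, 19 and 13% in the same order of comparisons. A missing call is therefore weak evidence of no difference, most of all for shares. In the same order, 1.54, 9.76, 5.92 and 5.56% of the edgeR calls on simulated data were false. Of the limma calls for shares, 0, 7.69, 9.52 and 7.14% were false. Same-numbered control samples in low and high glucose deviated together (correlations 0.199, 0.123 and 0.258). The main fits left the number out, so their p values ignore any such pairing. The number entered as a block in alternative fits. Same-numbered Pcbp2 βKO samples gave positive correlations too (0.066, 0.171, 0.105, 0.075 and 0.193). Between genotypes at one glucose concentration, same-numbered samples gave 0.047 to 0.354. With the number as a block, none of the 10 genes changed its call for glucose in control cells, while calls changed in other comparisons. Alternatives were RLE or total-count scaling, no filter, length-scaled counts, coding transcripts only, limma on log2(TPM + 0.1) or log2(TPM + 1), DESeq2 1.42.0, libraries left out and the block.

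The genes, lists and transcripts were chosen with earlier results of these data known. Named in the text were all 10 genes, Pcbp2, called genes of the lists (at most 3 in each direction), called or most abundant transcripts of the 10 genes (at most 3 per gene), markers beside a result, and the 4 nearest profiles of 2 genes; other transcripts and list members named were chosen after their values were seen. Exon positions and sequences came from GENCODE vM39 on GRCm39, in which 68 of the 99 transcripts had the version and length counted.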

Additional observations from a re-analysis of the deposited data

Results flagged for a closer look

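Within groups of 4 or 5 samples, the gap of the highest or lowest sample to the next was compared with the range of the group (Dixon's criterion), for the 10 genes and their main or called transcripts. Of 78 groups of values 9 exceeded the limit, and chance gives about 1 in 20. Of the 9, 8 concerned a Pcbp2 βKO library numbered 5.

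In Pcbp2 βKO cells in low glucose, replicate 5 had the lowest Rbm3, at 20.5 CPM against 66.2 CPM for the next (gap over range 0.721), and the highest Nova1, at 1.54 against 1.31 CPM (0.775). It also had the lowest shares of Rbm3-203 (19.5 against 27.1%, 0.824), Elavl4-201 (5.25 against 33.5%, 0.786) and Elavl1-204 (23.4 against 47.4%, 0.711), and the highest of Cirbp-207 (0.395 against 0.231%, 0.743).

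In Pcbp2 βKO cells in high glucose, replicate 5 had the highest Elavl4, at 38.1 against 27.5 CPM (0.771), and the highest share of Elavl4-201, at 9.05 against 0.875% (0.903). Replicate 3 had the highest share of Cirbp-204, at 3.23 against 2.31% (0.7104). In low glucose the heat shock gene Hspa1b was also highest in replicate 5, at 236 CPM against 69.7 to 107 CPM in the other 4 samples, while in high glucose it was at 6.05 CPM in replicate 5 and 1.99 to 12.2 CPM in the others. The part of these differences in the results was not tested beyond leaving both libraries out.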

How the results depend on the processing

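Rbmx2 in high glucose kept its direction and its call in the knockout under every alternative run, with each library left out (-1.08 to -0.70), with DESeq2 (-0.96), and with the replicate block (-0.91, adjusted p = 0.0458 by edgeR). The scaling decides the glucose comparisons: with total counts the median of all genes moved to -0.35 in control and -0.47 in Pcbp2 βKO cells, with limma on log2(TPM + 0.1) to -0.56 and -0.71. Rbmx2 in control cells then reversed (-0.20 with total counts, -0.70 and -0.62 with limma at 0.1 and 1 TPM added; -0.055 to 0.33 with a library left out), as did Nova1 in Pcbp2 βKO cells with limma (-0.45 and -0.14). Rbms3 for glucose reversed without Rbms3-213 (-0.36 in control, -1.02 in Pcbp2 βKO cells), with coding transcripts only (-0.39 and -1.01), and in Pcbp2 βKO cells with total counts (-0.064) and limma (-0.050 and -0.051).

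Of the 10 genes, total counts called 2 and limma 5 (both pseudocounts) for glucose in control cells. In Pcbp2 βKO cells, total counts called 4, length-scaled counts 2, coding transcripts 1, limma 6 (both) and libraries left out 0 to 1. For the knockout in high glucose, DESeq2 called 2 and libraries left out 1 to 2. In low glucose DESeq2 called 1, the fit without the 3 libraries that stood apart 1 and that without both numbered 5 also 1. Genes called over the whole series were 4837 (total counts), 8902 and 6975 (limma), 4898 (without the 3 apart) and 1382 to 4480 (libraries left out) for glucose in control cells. For the knockout in high glucose they were 190 (limma, 1 added), 726 (DESeq2), 587 (without the 3 apart) and 213 to 652. In low glucose they were 283, 833 (the same tools) and 242 to 529. For glucose in Pcbp2 βKO cells they were 12449 and 8831 (limma) and 4640 to 5742. For the interaction they were 8 (no filter), 3 and 0 (limma; edgeR called 1), 34 (DESeq2), 2 (without the 3 apart) and 0 to 2. Shares called were 1351 (without the 3 apart), 373 (edgeR usage) and 66 to 1291 (libraries left out) for glucose in control cells, 215 and 31 to 91 for the knockout in high, 133 and 17 to 35 in low glucose, and 909 and 2267 to 3631 for glucose in Pcbp2 βKO cells. The order by median TPM held for 8 of 10 genes in control high and Pcbp2 βKO low glucose.

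Same-numbered samples of low and high glucose deviated together in control cells and, with correlations of 0.066 to 0.193, in Pcbp2 βKO cells. With the replicate block, genes called were 5670 for glucose in control cells, 1039 for the knockout in low glucose and 13 for the interaction. Of the 10 genes, the block called 2 for the knockout in high glucose (Rbmx2, Rbms3) and 3 in low glucose (Rbm3, Rbms3, Ptbp3). Shares called with the block were 0 for the knockout in low and in high glucose and for glucose in control cells, and 836 for glucose in Pcbp2 βKO cells, among them 4 of the 10 called in the 10 genes (Elavl4-205, Elavl4-209, Rbms3-206 and Cirbp-207). The causes were not tested. Precision is limited by 3 to 5 samples per group and, for Rbms3 and Nova1, by low counts.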

Other observations

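Heat shock genes, listed beside the cold-inducible members Rbm3 and Cirbp, were lower in high glucose in both genotypes. In control cells 8 of 14 were called lower and none higher (13.8% of all genes called in either direction), with a median log2 fold change of -1.33 against 0.04 over all genes, led by Hspa1b (-2.53, SE 0.682, adjusted p = 0.0175 by edgeR), Hspa8 (-1.85, SE 0.207, adjusted p = 0.000114) and Hsp90ab1 (-1.54, SE 0.241, adjusted p = 0.000839). In Pcbp2 βKO cells 11 of 14 were called lower (23.8% of all genes called), with a median of -1.42, led by Hspa1b (-4.32), Hspa1a (-3.38) and Hspa8 (-1.83). Hspa8, the constitutive chaperone of the family, in control cells had 7330 ± 1800 CPM in low (SD, n = 3) against 2028 ± 448 CPM in high glucose (SD, n = 4). None of the 14 was called between genotypes in high or low glucose (1 and 3 at an unadjusted p under 0.05 in edgeR). Rbm3 and Cirbp themselves were not called between glucose concentrations, at log2 fold changes of -0.17 and 0.12 in control cells and 0.41 and 0.22 in Pcbp2 βKO cells.

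Rbm20, from the list of RBM genes, had larger fold changes between glucose concentrations than any of the 10 genes described. It was at 4.21, 2.35 and 6.89 CPM in control samples in low and 16.7, 11.6, 22.1 and 6.51 CPM in high glucose. In Pcbp2 βKO samples it was at 1.31, 0.798, 1.34, 1.40 and 2.01 CPM in low and 13.4, 12.02, 12.2, 7.65 and 7.28 CPM in high glucose. All low-glucose Pcbp2 βKO samples lay below all control samples, and 10.9% of all genes did not overlap between genotypes in low glucose. The interaction between genotype and glucose was not called (1.27 on the log2 scale, adjusted p = 1 by edgeR).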
